A study of Homo sapiens with 44 samples.

Results

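IFNα and IFNγ, the prototype type I and type II interferons, were compared directly with each other in the intestinal fibroblast line Ccd-18Co by bulk RNA-seq. The comparison took the 4 libraries labelled IFNA and the 4 labelled IFNG, that is 8 of the 44 libraries of the series, chosen by label alone. Ccd-18Co is a line of fibroblasts grown from normal human colon, so every library came from 1 genetic background, kept below passage 20. All cells, the controls included, were kept without serum for 72 h and then held for 24 h in serum-free medium, with IFNα at 10 ng/ml, with IFNγ at 10 ng/ml, or with no cytokine in the 4 unstimulated libraries. The unstimulated libraries were used to tell whether, in which direction and how far each interferon had moved a gene. Like all 44 libraries, they were also part of the fit behind the direct comparison. The other libraries came from 8 more cytokine groups. The sources do not say that the replicates were separate cultures, so the p-values measure the spread between these libraries, which may be technical.

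Type I interferons bind the IFNAR1 and IFNAR2 receptor pair, and the kinases JAK1 and TYK2 then phosphorylate STAT proteins, among them STAT2, which with IRF9 form the complex ISGF3. ISGF3 binds the interferon-stimulated response element (ISRE) in the promoters of antiviral genes. Type II interferon binds IFNGR1 and IFNGR2, and JAK1 and JAK2 start a signal that acts at the gamma-activated site (GAS) and switches on the transcription factor IRF1 and, through CIITA, the MHC class II genes. Stromal cells of the gut carry both receptors.

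Both elements can be seen in promoters of genes described in what follows. The sequences are 30-base windows of RefSeq promoters on GRCh38.p14, given 5′ to 3′ on the strand of the gene, with capitals marking the match. The first 5 lines are ISRE matches (searched as GAAANNGAA on both strands, so that the reverse complement reads TTCNNTTTC) in genes higher with IFNα, shown because these genes belong to the antiviral effector or ISG15 conjugation lists, which held calls on the IFNα side only.
RSAD2 (chr2:6865796-6865825, plus strand): agcgggaaacGAAAGCGAAgcgttgcgggg
IFIT1 (chr10:89392511-89392540, plus strand): actttcccctTTCGGTTTCcctaggtttcc
SAMD9 (chr7:93118096-93118125, minus strand): tctgagaaatGAAACTGAAaccaaacctat
IFI27 (chr14:94110631-94110660, plus strand): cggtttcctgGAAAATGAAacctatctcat
HERC5 (chr4:88457036-88457065, plus strand): aacattatgtTTCGTTTTCcactggagctg
GAS matches (searched as TTCNNNGAA, which is its own reverse complement) also stood in genes higher with IFNα, among them BST2, IFI27, OAS1, TLR3 and PNPT1. In the IFI27 window above, an unmarked GAS match overlaps the capitals. The next 3 lines are GAS matches in genes higher with IFNγ.
IRF1 (chr5:132490878-132490907, minus strand): acagcctgatTTCCCCGAAatgacggcacg
ICAM1 (chr19:10271035-10271064, plus strand): ggcgcgaggtTTCCGGGAAagcagcaccgc
CCL8 (chr17:34319334-34319363, plus strand): actcagcataTTCAAGGAAggtcttacttc
The last 4 lines are ISRE matches in 2 genes higher with IFNγ, GBP1 and CXCL9, and in 2 genes raised by both interferons without a direct call, CXCL10 and B2M, and show that the element was not found only beside genes higher with IFNα.
GBP1 (chr1:89065315-89065344, minus strand): acgaagtactTTCAGTTTCatattactcta
CXCL9 (chr4:76007661-76007690, minus strand): ccatttatgtGAAATGGAAataaaaacatg
CXCL10 (chr4:76023699-76023728, minus strand): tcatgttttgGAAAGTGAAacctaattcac
B2M (chr15:44711369-44711398, plus strand): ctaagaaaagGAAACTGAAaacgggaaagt

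The gene-level counts summed to 1354826 to 1801104 in the IFNα libraries, to 1125442 to 1423038 in the IFNγ libraries and to 1365019 to 1725354 in the unstimulated libraries, which is shallow, so that genes with few counts carry wide intervals. Levels are given as CPM (counts scaled to a common library total) after TMM scaling. The libraries numbered 1 and 2 stood apart from those numbered 3 and 4: the second component of the deviations from the group means, with 5.05% of their variance, split the numbers in this way and in the same direction in 9 of 11 groups, the 3 used here included. On the first component, with 11.1% of that variance, IFNγ replicate 2 lay at 53.8 and the other IFNγ libraries between -33.9 and -1.97. Both sets of numbers were therefore also fitted apart, and their values are given beside some results; the difference between the sets was not tested. All 10 fibroblast markers were detected (COL1A1, DCN, PDGFRA, THY1 and others), and their summed level was 27016 to 35162 CPM with IFNα, 17408 to 34384 CPM with IFNγ and 29285 to 41327 CPM without cytokine. Of 5 leukocyte markers, PTPRC and CD3E were at 0 with IFNα, and the list's sum of 38.0 to 73.8 CPM with IFNα against 8.31 to 20.6 CPM with IFNγ and 0 to 7.83 CPM without cytokine was carried by CD68, a lysosomal protein. Epithelial, endothelial and glial markers summed to at most 5.63 CPM in any of the 12 libraries. In bulk RNA, fewer cells of a type and less RNA per cell cannot be told apart.

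Which genes separated the 2 interferons was asked with edgeR's quasi-likelihood test over all 44 libraries. A gene was called where the Benjamini-Hochberg adjusted p was below 0.05 and the log2 difference, IFNα minus IFNγ, was beyond 1.5 in size. Of 9513 genes tested, 261 were called (2.74%), of which 160 were higher with IFNα (1.68%) and 101 higher with IFNγ (1.06%). In 231 of the 261 the 4 IFNα libraries did not overlap the 4 IFNγ libraries in CPM, against 12.8% of all genes tested. The median difference over all genes tested was -0.0041 on the log2 scale. Fitted within numbers 1 and 2 and within numbers 3 and 4, which hold the same libraries that chose these genes, 97 of the 261 were called in both sets, 64 in neither and none had opposite directions.

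Against the shared unstimulated libraries, IFNα called 379 genes (3.98%), 234 of them raised (2.46%) and 145 lowered (1.52%), and IFNγ called 336 genes (3.53%), 228 raised (2.40%) and 108 lowered (1.14%). No gene was called in opposite directions by the 2 interferons. The 160 genes higher with IFNα were made up of 37 that IFNα alone was called to raise, 22 raised by both, 37 that were called lowered by IFNγ and not by IFNα, and 64 called for neither interferon against unstimulated cells. The 101 genes higher with IFNγ held 27 called raised by IFNγ alone, 14 raised by both, 33 called lowered by IFNα alone, 1 lowered by both (CENPF) and 26 called for neither. Some of the direct differences thus came with genes that one interferon lowered: 37 with IFNγ, 33 with IFNα and CENPF with both.

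**Figure D1:**
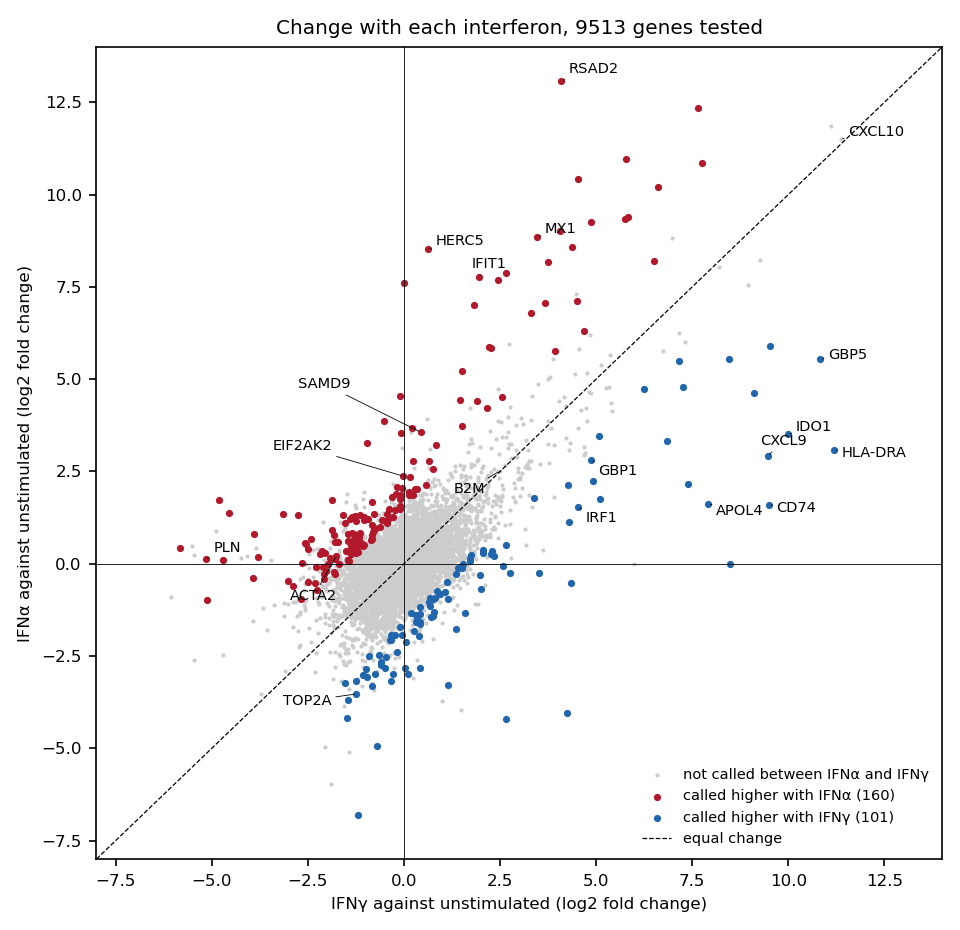
Fitted log2 fold change of each tested gene against unstimulated cells, with IFNγ on the horizontal and IFNα on the vertical axis; the 160 genes called higher with IFNα are red, the 101 called higher with IFNγ are blue and all others grey. The red genes lie above and the blue below the diagonal by construction, both axes share the same 4 unstimulated libraries, and the fitted changes of genes at 0 in a group depend on the prior count.

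On the IFNα side stood the antiviral genes. Of 35 antiviral effector genes tested, 21 were higher with IFNα, none was higher with IFNγ and 14 were not called; by adjusted p alone 29 were higher with IFNα, and the list's median direct difference was 1.99 on the log2 scale. IFNα raised 34 of the 35 and IFNγ 23, so most of these genes responded to both interferons and to different degrees.

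RSAD2, the radical-SAM enzyme viperin that makes a chain-terminating nucleotide, led the list. Its level was 796, 742, 736 and 695 CPM in the 4 IFNα libraries, 0.753, 4.15, 0 and 0.712 CPM in the IFNγ libraries and 0 in all unstimulated libraries. IFNα and IFNγ differed by 8.99 ± 0.52 (log2, SE; edgeR adjusted p = 1.66e-12), and IFNα stood at least 380-fold above the unstimulated libraries, taking 3 counts per library as the floor. RSAD2 was the gene with the largest direct difference among those called, detected and not overlapping. CMPK2, the neighbouring mitochondrial nucleotide kinase, had 117, 122, 128 and 164 CPM with IFNα and 0, 2.49, 5.20 and 6.41 CPM with IFNγ, a difference of 5.20 ± 0.73 (adjusted p = 1.71e-05). RSAD2 and CMPK2 overlap on opposite strands, and whether the counting used strand is not given in the sources used here.

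The dynamin-like GTPases followed. MX1 had 1151, 1089, 965 and 759.7 CPM with IFNα against 14.3, 19.9, 37.3 and 23.5 CPM with IFNγ and 2.04 ± 0.963 CPM (SD, n = 4) without cytokine, a direct difference of 5.39 ± 0.41. MX2 had 335, 265, 218 and 153 CPM with IFNα against 5.27, 10.8, 1.73 and 7.83 CPM with IFNγ, a difference of 5.22 ± 0.61. In both genes every IFNα library lay above every IFNγ library.

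Among the IFIT genes, whose proteins bind viral RNA ends, IFIT1 was the most abundant. It rose from 71.6 ± 20.3 CPM without cytokine to 15514 ± 1079 CPM with IFNα and to 276 ± 169.6 CPM with IFNγ (SD, n = 4 each), a direct difference of 5.81 ± 0.50 (adjusted p = 6.2e-12). IFIT2 was at 4062 ± 451 CPM with IFNα and 131 ± 12.5 CPM with IFNγ, and IFIT3 at 7555 ± 576 and 628 ± 66.7 CPM. Their direct differences were 4.95 ± 0.48 and 3.59 ± 0.42, and both were raised by IFNγ too, by 4.07 and 5.74 on the log2 scale. The IFIT genes lie next to one another, and IFIT1, IFIT2 and IFIT3 overlap the LIPA locus in the annotation.

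IFI27, a small mitochondrial protein, was at 908, 724, 786 and 779.6 CPM with IFNα, 33.9, 18.3, 17.3 and 18.5 CPM with IFNγ and 0.293 ± 0.348 CPM without cytokine, a direct difference of 5.17 ± 0.40. IFI6, a related protein, was at 7944 ± 3292 CPM with IFNα and 424 ± 333 CPM with IFNγ, a difference of 4.23 ± 0.57. Its IFNα libraries ranged from 4783 to 12570 CPM, and none overlapped the IFNγ libraries. IFI44L was at 1052 ± 217 CPM with IFNα and 123 ± 48.0 CPM with IFNγ, a difference of 3.10 ± 0.42.

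Some effectors moved with IFNα and showed no call with IFNγ. EIF2AK2, the kinase PKR that stops translation on sensing double-stranded RNA, had 311, 263, 292 and 285 CPM with IFNα, 60.3, 65.6, 37.3 and 57.0 CPM with IFNγ, and 52.4, 74.4, 46.4 and 49.2 CPM without cytokine. The IFNγ libraries overlapped the unstimulated ones (log2 change of -0.01, adjusted p = 0.987), and the direct difference was 2.38 ± 0.24 (adjusted p = 3.2e-10). SAMD9, a restriction factor for poxviruses, had 637, 625, 891 and 877 CPM with IFNα against 122, 65.6, 82.4 and 75.5 CPM with IFNγ and 64.2 ± 14.8 CPM without cytokine, a difference of 3.13 ± 0.26. TRIM5, a retroviral capsid sensor, was at 416 ± 38.2 CPM with IFNα and 91.2 ± 38.9 CPM with IFNγ, a difference of 2.19 ± 0.20. TRIM5 overlaps TRIM22 on the opposite strand, and TRIM22 was raised by both interferons to 501 ± 90.7 and 274 ± 54.2 CPM.

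Other effectors rose with both and were not called directly. IFITM3, which blocks viral fusion, was at 1867 ± 322 CPM with IFNα and 821 ± 61.7 CPM with IFNγ, a difference of 1.19 ± 0.15 that passed the adjusted p (8.88e-08) but not the fold threshold. IFITM1 behaved alike at 5940.5 ± 592 and 2508 ± 341 CPM, with a difference of 1.24 ± 0.26. IFITM1 and IFITM3 are close paralogues whose reads may be split between copies. IFITM2, by contrast, was called higher with IFNα. Against unstimulated cells IFITM2 was called raised by IFNα and not called with IFNγ. Its direct difference was 2.33 and 1.86 within the 2 sets of numbers. BST2 (tetherin) was called at 1.71 ± 0.46, and the call was lost without IFNα replicate 1 (adjusted p = 0.0716), IFNα replicate 2 (0.0755) or IFNγ replicate 2 (log2 difference of 1.47).

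The RNA sensors and the OAS enzymes, which activate RNase L, behaved like the effectors. Of 13 tested, 7 were higher with IFNα, none was higher with IFNγ and 6 were not called, with a median difference of 2.51. RIGI, the cytoplasmic RNA helicase, had 1412, 1429, 1335 and 1389 CPM with IFNα against 95.7, 139, 98.0 and 114 CPM with IFNγ and 23.6 ± 4.89 CPM without cytokine. Its direct difference of 3.64 ± 0.22 had an adjusted p of 1.68e-16, and IFNγ alone raised it by 2.22 on the log2 scale (adjusted p = 4.24e-10).

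OAS1 was at 508, 475, 442 and 344 CPM with IFNα and 10.6, 19.9, 27.7 and 11.4 CPM with IFNγ, and it was at 0 in all unstimulated libraries. IFNα therefore stood at least 226-fold and IFNγ at least 8.91-fold above unstimulated cells, and the direct difference was 4.68 ± 0.49. OASL, which binds RIG-I, was at 158, 118, 116 and 74.7 CPM with IFNα, at 7.12 CPM in IFNγ replicate 4 and at 0 in the other IFNγ libraries. TLR3, the endosomal receptor of double-stranded RNA, was at 138 ± 21.1 CPM with IFNα and 10.6 ± 7.19 CPM with IFNγ, a difference of 3.70 ± 0.73. DDX60 (164 ± 25.1 and 102 ± 42.6 CPM) and ADAR (85.6 ± 19.0 and 56.8 ± 12.7 CPM) were not called, with 95% intervals of the difference from -0.01 to 1.39 and from -0.01 to 1.19. IFIH1 (MDA5) had too few counts to be tested, with 20 counts over the IFNα, 5 over the IFNγ and none over the unstimulated libraries.

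Of 7 genes of the ISG15 conjugation pathway, which tags proteins with a ubiquitin-like modifier, 4 were higher with IFNα and none with IFNγ (median difference 3.48). HERC5, the ligase, had 189, 208, 205 and 237 CPM with IFNα and 1.51, 0, 1.73 and 0 CPM with IFNγ, a difference of 7.91 ± 0.78 (adjusted p = 2.55e-10). HERC5 with IFNγ, at 4 counts over the 4 libraries, could not be told from unstimulated cells, at 3 counts (ratio 1.65, exact 95% interval 0.279 to 11.3, counting error only). USP18, which removes ISG15 and blocks IFNAR2 signalling, was at 243 ± 40.6 CPM with IFNα and 11.6 ± 2.06 CPM with IFNγ, a difference of 4.38 ± 0.62. It was also the 1 called gene of 8 feedback inhibitors tested, in which SOCS2 missed the fold threshold at 1.44 ± 0.41.

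ISG15 itself was low in this table, at 8.27, 11.8, 9.53 and 8.10 CPM with IFNα and 1.51, 0, 0 and 1.42 CPM with IFNγ. Its direct difference of 3.48 ± 1.04 (adjusted p = 0.0437) lost its call when any 1 of the 8 libraries was left out (adjusted p of 0.0749 to 0.133). UBE2L6, the conjugating enzyme, was raised by both to 448 ± 98.6 and 349.9 ± 94.4 CPM and was not called directly (95% interval -0.28 to 0.99).

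TRIM25, a ligase of the ISG15 list with no call over all libraries, was called at 2.08 within numbers 1 and 2 (adjusted p = 0.0351) and was at 0.056 within numbers 3 and 4. Of the PARP genes linked to interferon 0 of 3 were called directly, and of the SP100 nuclear body family 0 of 5, with median differences of 0.51 and 0.79. Both counts are near the 2.74% called over all genes tested. PARP9 (327 ± 38.7 and 136 ± 21.6 CPM, difference 1.27 ± 0.30), SP100 (399.6 ± 7.92 and 175 ± 16.0 CPM, 1.19 ± 0.19) and SP110 (482 ± 52.2 and 181 ± 14.2 CPM, 1.41 ± 0.22) passed the adjusted p below the fold threshold. All 3 were higher with IFNα by less than the 1.5 required. DTX3L, the partner of PARP9, was at -0.39 within numbers 1 and 2 and was called at 1.74 within numbers 3 and 4 (adjusted p = 0.000141).

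**Figure D2:**
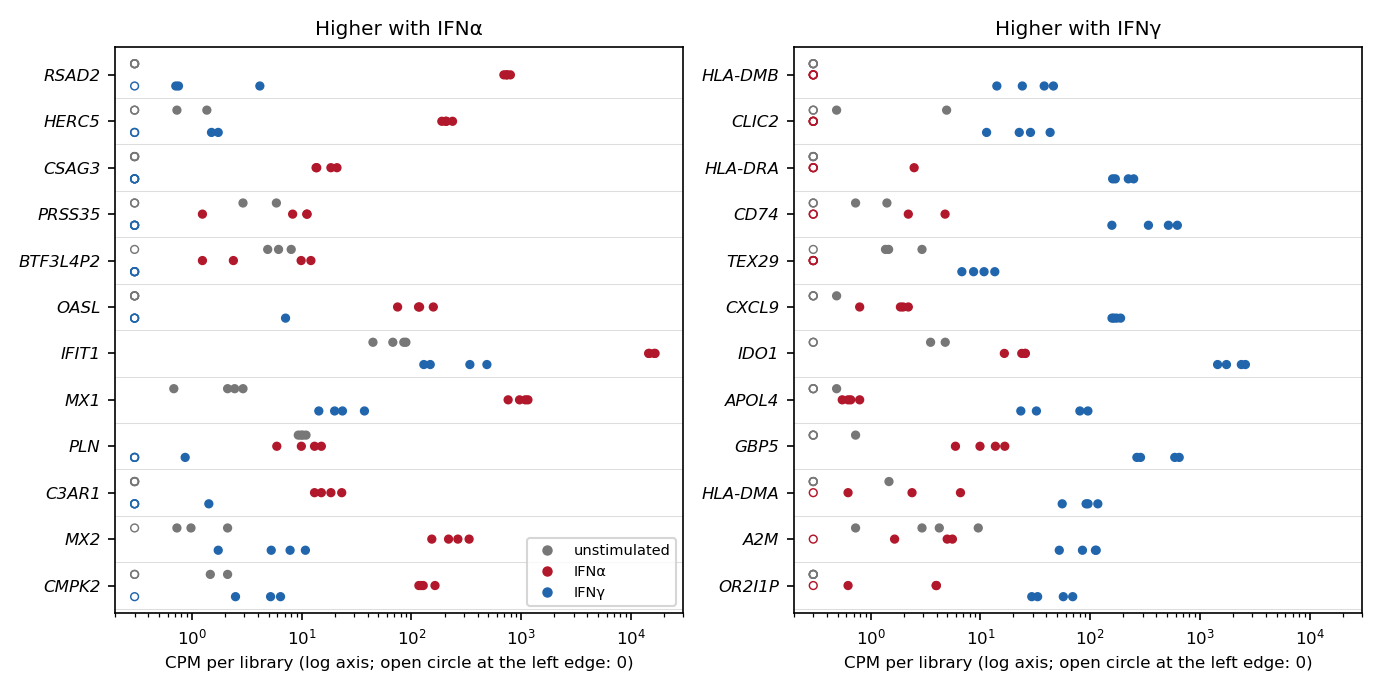
CPM on a log axis in each of the 4 unstimulated, 4 IFNα and 4 IFNγ libraries for the 12 called, non-overlapping genes with the largest direct difference in each direction. Open circles mark libraries at 0. The left panel runs from RSAD2 to CMPK2 and the right panel from HLA-DMB to OR2I1P.

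On the IFNγ side stood the MHC class II presentation genes. Of 9 tested, 5 were higher with IFNγ, none with IFNα and 4 were not called. The median difference was -2.00, and it stays so with HLA-DMB set at its bound. CD74, the invariant chain that guides class II molecules, had 339.7, 158, 517 and 623 CPM with IFNγ, 2.20, 0, 4.77 and 0 CPM with IFNα and 0, 0.729, 1.41 and 0 CPM without cytokine. CD74 differed directly by -7.90 ± 0.73 (adjusted p = 2.55e-10), and IFNα did not move CD74 detectably at this depth (10 counts against 3, ratio 3.39, exact 95% interval 0.872 to 19.2).

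HLA-DRA, the class II alpha chain, had 169.5, 160.3, 223 and 249 CPM with IFNγ, 2.49 CPM in IFNα replicate 4 and 0 in the other 3 IFNα and all unstimulated libraries. The direct difference was -8.10 ± 0.79. HLA-DMB, the beta chain of the peptide exchange factor HLA-DM, had 24.1, 14.1, 38.1 and 46.3 CPM with IFNγ and 0 in every IFNα and unstimulated library, so that IFNγ stood at least 15.6-fold above IFNα. HLA-DMA, its alpha chain, was at 90.2 ± 25.6 CPM with IFNγ and 2.40 ± 2.97 CPM with IFNα, a difference of -5.22 ± 0.90. HLA-DPB1 differed by -2.00 ± 0.46 (25.6 ± 6.73 against 6.24 ± 1.98 CPM). Its difference was -1.66 within numbers 1 and 2 (adjusted p = 0.166) and -2.33 within numbers 3 and 4 (adjusted p = 0.0277). HLA-DMA overlaps BRD2 in the annotation, and class II chains are close paralogues.

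Further class II chains were too low to be tested and showed the same split in raw counts. HLA-DRB1 had 77 counts over the 4 IFNγ libraries and HLA-DPA1 had 69, and both had 0 in the IFNα and unstimulated libraries. CIITA, the class II transactivator, had 34 counts over the IFNγ, 20 over the IFNα and 23 over the unstimulated libraries, and was not tested. The enzymes of the class II pathway were not called: the thiol reductase IFI30 was at 52.9 ± 11.4 CPM with IFNγ and 25.6 ± 6.62 CPM with IFNα (95% interval of the difference -2.33 to 0.23), and the protease CTSS at 80.4 ± 29.8 and 54.8 ± 9.62 CPM (-1.69 to 0.58).

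The guanylate-binding proteins, GTPases that coat intracellular vacuoles and bacteria, were raised by both interferons in 5 of 5 genes tested and further by IFNγ. Of the 5, 4 were called higher with IFNγ, and the median difference was -3.33. GBP1 was the most abundant of them, with 9675, 9699, 7699 and 6821 CPM with IFNγ, 2089, 2135, 1884 and 2027 CPM with IFNα and 291 ± 49.4 CPM without cytokine, a difference of -2.06 ± 0.16 (adjusted p = 8.34e-13). GBP5 had 288, 267, 590.4 and 648 CPM with IFNγ against 9.92, 5.93, 16.7 and 13.7 CPM with IFNα, a difference of -5.28 ± 0.65. GBP2 (1364 ± 187 against 135 ± 20.1 CPM) and GBP4 (85.3 ± 37.9 against 7.36 ± 3.07 CPM) differed by -3.33 ± 0.28 and -3.52 ± 0.65. The GBP4 difference was -2.55 within numbers 1 and 2 (adjusted p = 0.0571) and -4.40 within numbers 3 and 4 (adjusted p = 0.00112). GBP3 differed by -1.39 ± 0.21 (adjusted p = 5.51e-06), under the fold threshold. Reads of these paralogues may be split between copies.

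Class I presentation was raised by both interferons, in 17 of 20 genes tested by each. By adjusted p alone 4 of the 20 were higher with IFNγ and 1 with IFNα. Within numbers 1 and 2 none was called, and within numbers 3 and 4, 3 were called higher with IFNγ. Over all genes tested 2.74% were called. PSMB10, a subunit of the immunoproteasome, was the only one of 20 called: 94.9, 96.3, 128 and 154 CPM with IFNγ against 59.5, 55.3, 27.0 and 13.7 CPM with IFNα (-1.60 ± 0.37). The call fell under the fold threshold without IFNα replicate 3 (-1.48), IFNα replicate 4 (-1.31) or IFNγ replicate 4 (-1.45), and the PSMB10 difference was -0.73 within numbers 1 and 2 (adjusted p = 0.385) and -2.80 within numbers 3 and 4 (adjusted p = 6.13e-05). B2M, the light chain of class I molecules, was at 14577 ± 987 CPM with IFNα, 14372 ± 1149.7 CPM with IFNγ and 2556 ± 136 CPM without cytokine, and the 95% interval of its direct difference ran from -0.23 to 0.27. HLA-B was at 401 ± 18.0 and 264 ± 43.8 CPM (0.60 ± 0.17, adjusted p = 0.0194), and TAP1, the peptide transporter, at 53.7 ± 14.8 and 132 ± 24.5 CPM (-1.29 ± 0.48, adjusted p = 0.0845).

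**Figure D3:**
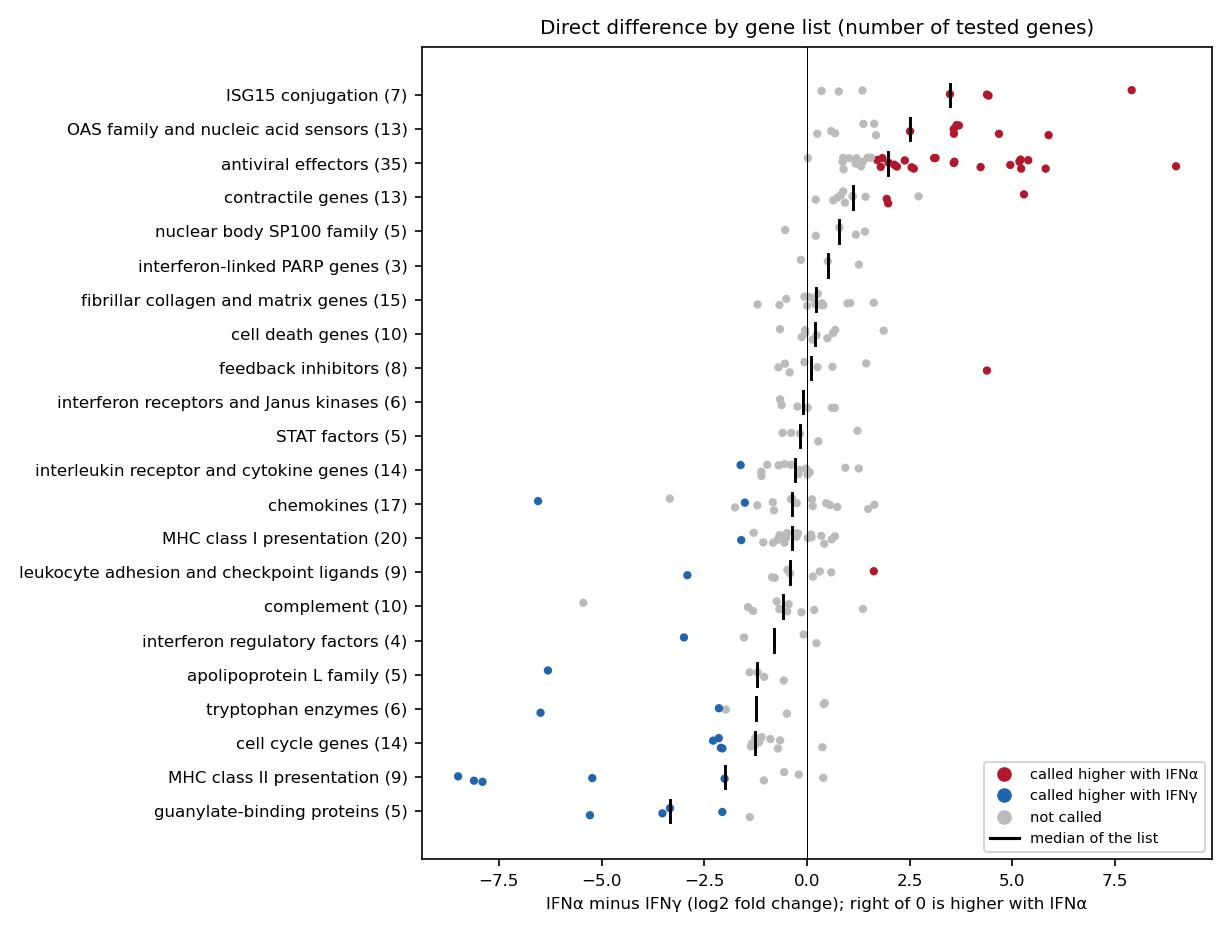
Direct log2 difference (IFNα minus IFNγ) of each tested gene by gene list, red where called higher with IFNα, blue where called higher with IFNγ and grey otherwise, with black bars at the list medians. Antiviral, sensor and ISG15 lists have medians of 1.99, 2.51 and 3.48, and the guanylate-binding and MHC class II lists of -3.33 and -2.00.

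Of 4 interferon regulatory factor genes tested, 1 was called directly. IRF1 had 115, 116, 130 and 122 CPM with IFNγ, 7.16, 27.6, 8.74 and 16.8 CPM with IFNα and 8.32, 2.92, 2.11 and 6.83 CPM without cytokine. Its direct difference was -2.99 ± 0.47 (adjusted p = 1.23e-05), and the highest IFNα library lay below the lowest IFNγ library. IRF1 overlaps the antisense gene IRF1-AS1. The other 3 IRF genes tested were not called: IRF9, the DNA-binding part of ISGF3, was at 43.5 ± 9.97 CPM with IFNα and 36.9 ± 38.2 CPM with IFNγ, where replicate 4 had 94.0 CPM and the others 12.5 to 20.8 CPM. The IRF9 difference was 1.49 within numbers 1 and 2 and -0.50 within numbers 3 and 4, neither past the test. IRF7 and IRF8 were not tested, with 31 and 0 counts over the IFNα libraries, 4 and 19 over the IFNγ libraries and 3 and 0 over the unstimulated libraries.

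None of 5 STAT genes was called directly, where 2.74% of all genes tested were. STAT2, the part of ISGF3 particular to type I signalling, was at 2049 ± 408 and 1691 ± 1142 CPM, with a 95% interval of the log2 difference from -0.31 to 0.86 over all libraries and IFNγ libraries that ranged from 704 to 3282 CPM. The STAT2 difference was -0.52 within numbers 1 and 2 (adjusted p = 0.309) and 1.42 within numbers 3 and 4 (adjusted p = 0.000501). The receptors and Janus kinases held 0 calls among 6 genes, also near that 2.74%. IFNAR1 was lower with IFNα at 67.8 ± 16.1 CPM than with IFNγ at 107 ± 24.4 CPM (-0.65 ± 0.20, adjusted p = 0.0326), and IFNGR1 was higher with IFNα at 165 ± 19.9 CPM than with IFNγ at 103 ± 27.2 CPM (0.68 ± 0.22, adjusted p = 0.0358). The median difference of these lists was -0.81 for the IRFs and -0.11 for the receptors and kinases.

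Among 17 chemokines tested, 2 were higher with IFNγ and none with IFNα (median -0.36). By adjusted p alone 1 was higher with IFNα and 2 with IFNγ. CCL11, an eotaxin, was not called over all libraries. Its difference was 1.46 within numbers 1 and 2 (adjusted p = 0.00748). Within numbers 3 and 4 it was called higher with IFNα, at 1.53 (adjusted p = 0.00356). The 3 ligands of the receptor CXCR3, which draws T cells, did not move alike. CXCL9 had 158, 164, 174 and 189 CPM with IFNγ and 2.20, 1.98, 0.794 and 1.87 CPM with IFNα, a difference of -6.54 ± 0.88 (adjusted p = 5.75e-06). CXCL10 was at 6319 ± 745 CPM with IFNα, 5729.7 ± 2044 CPM with IFNγ and 2.24 ± 2.92 CPM without cytokine, and its interval ran from -0.79 to 1.08. CXCL11 was at 3879.8 ± 194 and 2329 ± 289 CPM, with a difference of 0.74 ± 0.49 that did not pass the test (adjusted p = 0.434) although the 8 libraries did not overlap. CCL8, a monocyte attractant, was called at -1.51 ± 0.44 (adjusted p = 0.0184), at the fold threshold, and lost the call without IFNα replicate 1 (-1.38), IFNα replicate 2 (-1.36), IFNγ replicate 3 (-1.23) or IFNγ replicate 4 (-1.35). CCL2, its relative, was at 1845 ± 455 and 2375 ± 395 CPM and was not called.

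Of 6 genes of tryptophan metabolism, 2 were higher with IFNγ. IDO1, which breaks down tryptophan to kynurenine, had 1747, 1450, 2598 and 2387 CPM with IFNγ, 16.5, 25.7, 23.8 and 25.5 CPM with IFNα and 2.07 ± 2.45 CPM without cytokine. The direct difference was -6.48 ± 0.58 (adjusted p = 1.39e-10), and IFNα still raised IDO1 by 3.50 on the log2 scale (adjusted p = 0.00267). WARS1, the tryptophanyl-tRNA synthetase, was at 6752 ± 1637 CPM with IFNγ and 1530.2 ± 410.1 CPM with IFNα, a difference of -2.14 ± 0.24. TDO2 and KYNU, which act in the same route, were not called, at 15.3 ± 10.6 and 37.0 ± 30.7 CPM with IFNγ and 20.4 ± 15.2 and 26.4 ± 15.1 CPM with IFNα.

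APOL4 was the 1 called of 5 apolipoprotein L genes, at 23.4, 32.4, 80.6 and 95.4 CPM with IFNγ and 0.551, 0.658, 0.794 and 0.623 CPM with IFNα (-6.30 ± 0.87). APOL2 passed the adjusted p below the fold threshold (3885 ± 1366 against 1889 ± 258 CPM, -1.04 ± 0.19). Among 9 adhesion and checkpoint ligands, 1 was called in each direction. TNFSF13B, the B-cell survival factor BAFF, was higher with IFNα, at 387, 397, 481 and 552 CPM against 126, 126, 194 and 142 CPM (1.63 ± 0.39, adjusted p = 0.00399). ICAM1, a ligand of leukocyte integrins, was higher with IFNγ, at 19.6, 5.81, 51.1 and 42.7 CPM against 4.96, 2.63, 5.56 and 2.49 CPM (-2.91 ± 0.93, adjusted p = 0.0384). The ICAM1 call was lost when any 1 of the IFNα libraries or IFNγ replicate 3 or 4 was left out (adjusted p of 0.062 to 0.130). CD274 (PD-L1) was at 53.9 ± 21.2 CPM with IFNα and 92.7 ± 9.42 CPM with IFNγ and was not called (adjusted p = 0.261).

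Of 14 interleukin and receptor genes 1 was called, IL32 at -1.61 ± 0.43 (95.2 ± 16.8 CPM with IFNγ and 31.1 ± 11.0 CPM with IFNα), and it fell to -1.40 (adjusted p = 0.0586) without IFNα replicate 4. None of 10 complement genes and none of 10 cell death genes was called, with medians of -0.58 and 0.19. With 2.74% of all genes tested called, no call in lists this short is near that share. CASP1, the inflammatory caspase, was at 1303 ± 168 and 1336 ± 127 CPM with an interval from -0.40 to 0.32, and TNFSF10 (TRAIL) at 109.9 ± 26.3 and 30.1 ± 12.3 CPM missed the threshold at 1.87 ± 0.65 (adjusted p = 0.063).

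In all, 137 genes were raised by both interferons against the shared unstimulated libraries. Of these, 22 were higher with IFNα and 14 higher with IFNγ, and 101 had no direct call. In 20 of the 101 the 95% interval of the direct difference lay within 1 log2 unit either side of 0. Among them were B2M, HLA-B, HLA-C, CASP1, PARP14, PSME2, TAPBP, IL15RA, UBE2L6 and STAT2. Of the genes just named, all but HLA-B and PSME2 had differences of opposite sign in the 2 sets of numbers. HLA-C, for 1, was at 0.93 within numbers 1 and 2 (adjusted p = 0.0208) and -0.084 within numbers 3 and 4. In the other 81 the interval reached beyond 1 log2 unit, and these include genes such as IFITM3, SP110 and GBP3 that passed the adjusted p below the fold threshold.

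**Figure D4:**
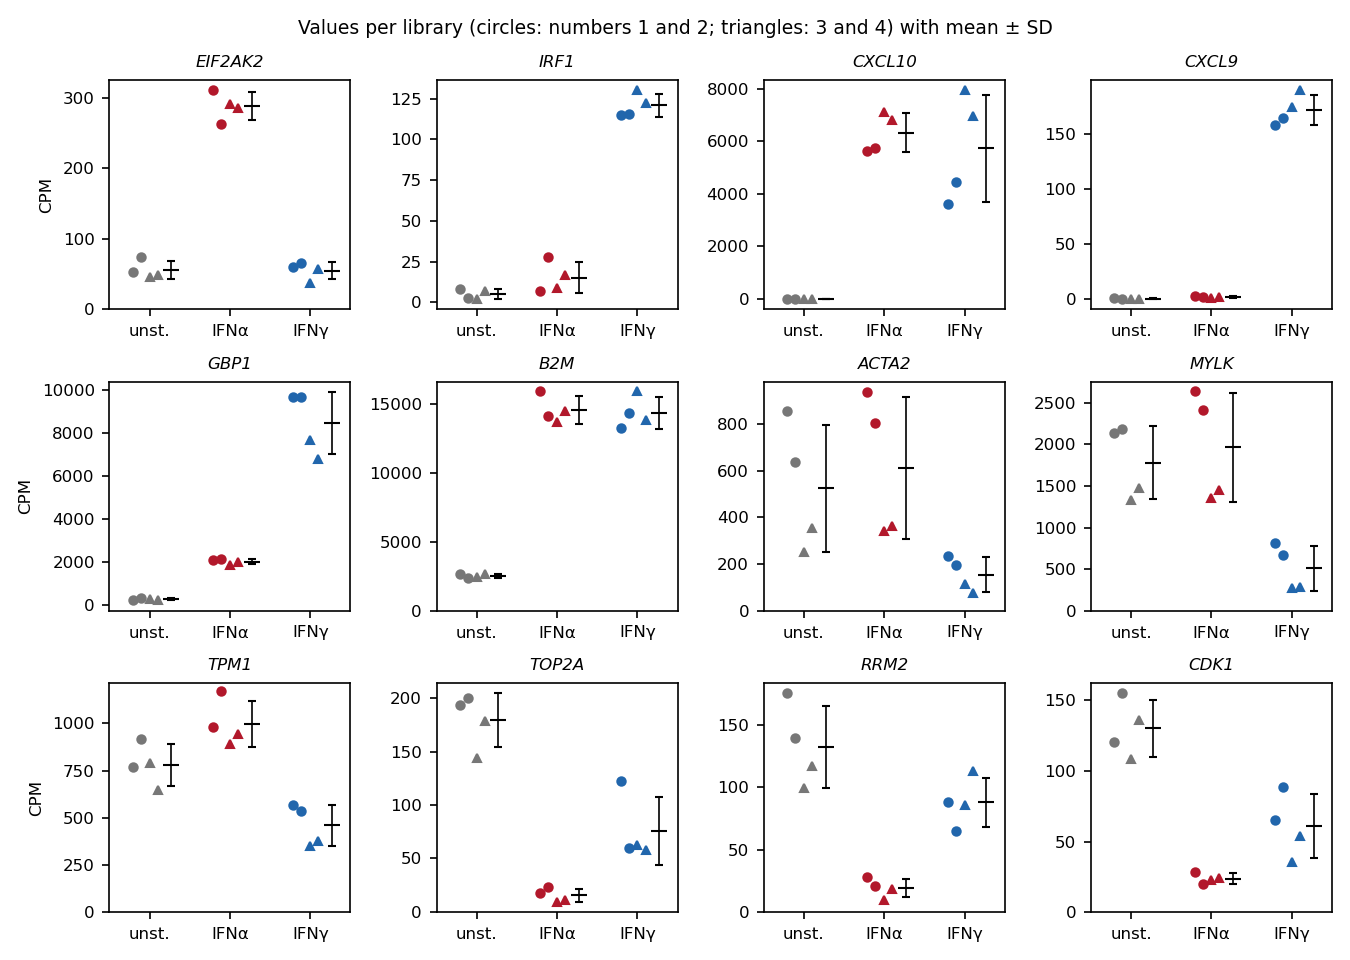
CPM per library in unstimulated, IFNα and IFNγ cells for EIF2AK2, IRF1, CXCL10, CXCL9, GBP1, B2M, ACTA2, MYLK, TPM1, TOP2A, RRM2 and CDK1, with circles for numbers 1 and 2, triangles for numbers 3 and 4 and bars at the mean ± SD (n = 4). CXCL10 and B2M overlap between the interferons, EIF2AK2 is higher with IFNα, IRF1, CXCL9 and GBP1 are higher with IFNγ, MYLK and TPM1 are lower with IFNγ, and TOP2A and RRM2 are lower with IFNα.

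The interferons also differed in genes that they lowered. Of 13 contractile genes tested, 3 were higher with IFNα and none with IFNγ (6 by adjusted p alone), and the median difference was 1.11. IFNγ lowered 3 of the 13 against unstimulated cells and IFNα none. MYLK, the kinase that starts smooth muscle contraction, had 2634, 2416, 1358 and 1452 CPM with IFNα, 816, 668, 277 and 283 CPM with IFNγ and 2134, 2181, 1333 and 1473 CPM without cytokine. The direct difference was 1.94 ± 0.27 (adjusted p = 9.84e-07), and it was 1.77 within numbers 1 and 2 and 2.33 within numbers 3 and 4. ACTA2, smooth muscle actin, had 938, 806, 343 and 361 CPM with IFNα against 235, 197, 116 and 74.8 CPM with IFNγ and 854, 636, 254 and 354 CPM without cytokine. Its difference was 1.98 ± 0.39 (adjusted p = 0.000364), with 2.01 and 1.89 within the 2 sets of numbers, and in every set the IFNγ libraries lay lowest.

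PLN, phospholamban, an inhibitor of the calcium pump, had 67 counts over the IFNα, 1 over the IFNγ and 63 over the unstimulated libraries, an IFNα to IFNγ ratio of 55.0 (exact 95% interval 9.54 to 2205, counting error only). TPM1 (996 ± 123 against 459.9 ± 110.1 CPM, 1.11 ± 0.16) and CALD1 (2006 ± 248 against 1133 ± 287 CPM, 0.82 ± 0.14), which bind actin filaments, passed the adjusted p under the fold threshold, and TAGLN missed it (0.93 ± 0.32, adjusted p = 0.054). ACTA2 overlaps ACTA2-AS1 and FAS, and PLN lies within CEP85L. Of 15 fibrillar collagen and matrix genes none was called (2.74% of all genes tested were), with a median of 0.21. By adjusted p alone 2 were higher with IFNα and none with IFNγ. SPARC differed by 1.10 within numbers 1 and 2 (adjusted p = 5.8e-06) and 0.82 within numbers 3 and 4 (adjusted p = 0.000362). COL5A2 differed by 0.79 (adjusted p = 0.0171) and 1.45 (adjusted p = 1.64e-05) in the same sets. FN1 was at 1078 ± 296 CPM with IFNα and 896 ± 206 CPM with IFNγ. COL1A1 with IFNγ ranged from 1628 to 12380 CPM, against 7727 ± 1497 CPM with IFNα, and its difference was not called over all libraries (interval -0.32 to 1.12). Within numbers 3 and 4 COL1A1 was called higher with IFNα, at 1.72 (adjusted p = 6.1e-05), and within numbers 1 and 2 its difference was -0.16 (adjusted p = 0.837).

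Cell cycle genes moved the other way. Of 14 tested, 4 were higher with IFNγ and none with IFNα (8 by adjusted p alone), with a median of -1.26. IFNα lowered 8 of the 14 against unstimulated cells and IFNγ lowered 1. TOP2A, the topoisomerase that untangles chromosomes, had 17.6, 23.0, 9.53 and 11.2 CPM with IFNα, 123, 59.8, 62.4 and 57.7 CPM with IFNγ and 194, 200.5, 144 and 179 CPM without cytokine. The direct difference was -2.28 ± 0.33 (adjusted p = 2.95e-06). RRM2, the small subunit of ribonucleotide reductase, had 28.1, 21.1, 10.3 and 18.7 CPM with IFNα and 88.1, 64.8, 85.8 and 113 CPM with IFNγ, a difference of -2.15 ± 0.24.

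BIRC5 (survivin) differed by -2.10 ± 0.29 (15.0 ± 10.9 against 62.1 ± 15.7 CPM). UBE2C, which supplies ubiquitin to the anaphase-promoting complex, differed by -2.06 ± 0.61, and its call was lost without IFNα replicate 3 (adjusted p = 0.0607) or 4 (0.109). CDK1, the mitotic kinase, was at 23.9 ± 3.68 CPM with IFNα and 61.0 ± 22.3 CPM with IFNγ (-1.34 ± 0.28), and MKI67 was at 6.35 ± 4.34 and 10.3 ± 2.26 CPM and not called. The cells had been without serum throughout, and whether fewer cells were cycling was not tested.

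The rest of the leading genes belonged to none of the lists. C3AR1, a complement receptor, had 110 counts over the IFNα and 2 over the IFNγ libraries (ratio 45.2, exact 95% interval 12.2 to 378). CSAG3 was at 16.6 ± 3.66 CPM with IFNα and 0 in all IFNγ and unstimulated libraries, at least 7.02-fold above IFNγ. PRSS35 and BTF3L4P2 were at 0 with IFNγ, and IFNα stood at least 3.35-fold and 2.70-fold above the floor, but the BTF3L4P2 call was lost when any 1 library was left out except IFNα replicate 3 or 4 (adjusted p of 0.0554 to 0.0761). PRSS35 and BTF3L4P2 were at 7.96 and 6.41 CPM with IFNα and 2.20 and 4.77 CPM without cytokine. Neither was called raised by IFNα, and BTF3L4P2 was called lowered by IFNγ. On the IFNγ side, CLIC2 and TEX29 were at 0 in all IFNα libraries and IFNγ stood at least 13.4-fold and 5.05-fold above the floor. A2M, a protease inhibitor, was at 90.7 ± 28.7 CPM with IFNγ and 3.05 ± 2.66 CPM with IFNα, a difference of -4.89 ± 0.77. OR2I1P, an olfactory receptor pseudogene that overlaps UBD, was at 47.2 ± 19.1 and 2.14 ± 2.12 CPM.

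A second test lost part of these calls. DESeq2's Wald test over the 44 libraries lost 13 of the 67 named called genes, which were BST2, C3AR1, CCL8, CMPK2, CSAG3, CXCL9, GBP5, HERC6, HLA-DMB, HLA-DRA, ICAM1, ISG15 and OASL (adjusted p of 0.0558 to 0.72). DESeq2 had set the dispersion of 11 of these 13 and of 21 of the 54 kept genes as an outlier, and 12 of the 13 were called by DESeq2 over the 8 libraries alone. With DESeq2 over the 44 libraries, 3 of 9 MHC class II, 3 of 5 guanylate-binding and 2 of 7 ISG15 pathway genes were called.

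The motif shares of the promoters, 250 bases before to 50 after each start, were counted where RefSeq gave a promoter. An ISRE match was found in 21 of the 48 promoters (43.8%) given for the 59 genes higher with and raised by IFNα. It was found in 7.02% of the 7920 tested genes with a promoter and in 8.29% of all 27305 promoters. Of the 101 genes higher with IFNα that IFNα had not raised, 80 had a promoter. Of these 80, 6 held an ISRE match and 6 a GAS match. A GAS match was found in 6 of the 48 (12.5%), 7.06% of the tested genes and 7.88% of all promoters. An ISRE match was also found in 27, and a GAS match in 14, of the 73 promoters given for the 101 genes raised by both without a direct call. Among the genes higher with IFNγ only 79 of 101 had a promoter. Among those that IFNγ had raised 29 of 41 had one, of which 7 held an ISRE match and 7 a GAS match. A share over these sets, or over the 80 promoters above, is void, but the ISRE match was not particular to genes higher with IFNα. A match is a description of these letters, and neither a match nor its absence tells whether a factor bound there.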

How the data were processed

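The authors deposited 1 table of estimated counts per gene symbol for 44 libraries, made per the study's methods and the submitters' notes with FastQC 0.11.9, MultiQC 1.14 and kallisto 0.48.0 from libraries made with the NEBNext Ultra II RNA kit. The labels name the hg38 build. The transcriptome release and whether strand was used are not given in the sources used here.

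The table held 40663 symbols, of which 16928 were at 0 in all libraries. Estimated counts, of which 5.77% were not whole, were rounded. R 4.3.3 and edgeR 4.0.16 were used: filterByExpr by group (9513 genes kept), TMM scaling, and a quasi-likelihood fit with 1 term per group over all 44 libraries. A call needed a Benjamini-Hochberg adjusted p below 0.05 and a log2 difference beyond 1.5 in size. The fit had a common biological coefficient of variation of 0.331. The quasi-likelihood test gives no standard error. The SE given here is the size of the log2 difference divided by the square root of the test's F statistic. The 95% intervals of log2 differences were built from this SE with a t distribution. Where a group is near 0 counts, the difference and its SE depend on the prior count. Low counts keep a wide counting error: a group at 0 is set against a floor of 3 counts per library (1.97 CPM with IFNα, 2.37 CPM with IFNγ), ratios with 1 to 3 counts have exact 95% intervals, and both cover counting error only. The scripts were tested on simulated data.

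The genes named are members of gene lists, the 12 genes with the largest difference in each direction among called, non-overlapping genes with a mean log2 CPM of at least 1, and some uncalled members; the lists and genes were chosen with earlier results of these data known. Within-group replicates differed beyond counting noise in all 18 pairs (lowest chi-square per degree of freedom 4.49), and 0 pairs were identical. Deviations of same-numbered IFNα and IFNγ libraries had r of -0.125 to 0.0453, so the numbers were not taken to pair libraries. Promoters came from RefSeq on GRCh38.p14 and gene overlaps from GENCODE release 44, to which 99.23% of symbols matched. Alternatives were DESeq2 1.42.0, its size factors, other count filters, only the libraries compared, a fold threshold of 1 or none, the replicate block, leaving out each library and a stricter GAS. The fits within numbers 1 and 2 or 3 and 4, and DESeq2 on the libraries compared, were added after seeing the data.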

Additional observations from a re-analysis of the deposited data

Results flagged for a closer look

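Among 216 groups of 4 libraries checked for 1 library far from the others, 11 (5.09%) held one, and chance gives about 1 in 20. In the IFNα group, replicate 4 stood apart for CTSS (69.12 CPM, others 48.49 to 50.84), for HLA-DRA (2.491 CPM, others 0), for IFI16 (1278 CPM, others 1061 to 1096) and for LY6E (108.4 CPM, others 158.1 to 160.9). In the IFNγ group, replicate 4 stood apart for IRF9 (93.98 CPM, others 12.46 to 20.81) and OASL (7.12 CPM, others 0). IFNγ replicate 1 stood apart for IFI27 (33.9 CPM, others 17.34 to 18.51) and TOP2A (122.8 CPM, others 57.67 to 62.42). IFNγ replicate 2 stood apart for TRIM5 (149.5 CPM, others 68.54 to 74.05) and WARS1 (4329 CPM, others 7324 to 7927), and IFNγ replicate 3 for RTP4 (85.83 CPM, others 45.19 to 45.68). All of these values lie within their own group, and the cause was not tested.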

How the results depend on the processing

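The 261 direct calls (160 higher with IFNα, 101 higher with IFNγ) were recomputed under each alternative. With DESeq2's test 273 genes were called (241 shared), with its size factors 259, and with only the 8 libraries 185 of 7409 tested (178 shared), 64 of them higher with IFNγ; the count of genes lowered by IFNγ against unstimulated cells was then 54. A threshold of 1 gave 483 direct calls (292 and 191), 599 for IFNα (273 lowered) and 601 for IFNγ (270 lowered) against unstimulated cells, and 37 genes raised by both with an interval within 1, against 20. No fold threshold gave 893 (469 and 424), 937 (475 and 462) and 1013 (525 and 488). Within numbers 3 and 4 the direct count was 421 (264 and 157) and that of IFNγ against unstimulated cells 757 (373 and 384), and within numbers 1 and 2 the genes lowered by IFNα were 91. Leaving out 1 library gave 217 to 297 direct calls, 217 without IFNγ replicate 3 and 297 without IFNγ replicate 2. The stricter GAS left 5 of 12 matches among the genes higher with IFNα.

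With the replicate block, 273 genes were called (166 and 107), 254 of them shared, and ICAM1 (adjusted p = 0.0524), ISG15 (0.0755) and CCL8 (log2 difference of -1.45) lost their call. Of the 4 IFNα and IFNγ pairs of the same number, 1 had its highest correlation with its own number.

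Of 113 named genes 67 were called, 44 of them lost the call under no alternative that gave them a value (PLN and TEX29 had no adjusted p with DESeq2 on the 8 libraries and no value in the edgeR fit of those alone), and 1791 of 1910 values kept their direction and side of the threshold. Of the uncalled ones among these 113, 8 changed sign somewhere. HLA-C, TAPBP and IL15RA, which changed sign between the sets of numbers, were not among the 113. B2M was at -0.0016 with DESeq2's size factors and with its test, -0.0036 with its test on the 8 libraries and -0.080 within numbers 3 and 4. Within numbers 3 and 4 CASP1 was at 0.10, CXCL10 at -0.10, IRF9 at -0.50, PARP14 at 0.19 and UBE2L6 at -0.16, and within numbers 1 and 2 HLA-E was at 0.29 and STAT2 at -0.52. Leaving out 1 library gave -0.042 to 0.058 for B2M, -0.10 to 0.029 for CASP1, -0.046 to 0.32 for CXCL10, -0.079 to 1.28 for IRF9, and 78 to 163 genes lowered by IFNγ. The cause of these changes was not tested.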

Other observations

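Genes outside the lists, chosen here after their values were seen, also separated the interferons. IGF1, a growth factor of fibroblasts, was at 168, 213, 235 and 212 CPM with IFNα, 43.7, 62.3, 26.0 and 29.2 CPM with IFNγ and 168 ± 40.2 CPM (SD, n = 4) without cytokine, a direct difference of 2.36 ± 0.24 (log2, SE; edgeR adjusted p = 3.66e-10). TSLP, an epithelial and stromal alarmin, was at 25.6 ± 10.2 CPM with IFNα and 3.36 ± 2.21 CPM with IFNγ, a difference of 2.90 ± 0.56. FGF1 (63.0 ± 6.52 against 13.9 ± 8.85 CPM), EDN1 (27.6 ± 6.99 against 4.48 ± 3.56 CPM) and STC2 (84.3 ± 21.0 against 19.9 ± 6.70 CPM) differed by 2.17 ± 0.34, 2.60 ± 0.53 and 2.07 ± 0.37. FGF1, EDN1 and STC2 were called for neither interferon against unstimulated cells. The Wnt inhibitor DKK1 was at 353 ± 72.2 CPM with IFNα, 96.5 ± 19.8 CPM with IFNγ and 127 ± 41.2 CPM without cytokine, a direct difference of 1.87 ± 0.24. ANGPTL1, an angiopoietin-like secreted protein, was raised to 126 ± 33.1 CPM with IFNα from 5.36 ± 4.22 CPM and was at 5.04 ± 2.43 CPM with IFNγ.

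On the IFNγ side, MT2A, a metal-binding metallothionein, was at 862, 654, 1175 and 1242 CPM with IFNγ and 295, 288, 352 and 289 CPM with IFNα, a difference of -1.68 ± 0.20. NNMT, a methyltransferase of nicotinamide, was at 588 ± 90.3 against 190.0 ± 33.3 CPM (-1.63 ± 0.17), and RAB31, a vesicle GTPase, at 587 ± 239 against 132 ± 4.14 CPM (-2.15 ± 0.30). Against unstimulated cells MT2A and RAB31 were called raised by IFNγ and not called with IFNα, and NNMT was called for neither interferon. The mitotic genes NUSAP1, PRC1, DLGAP5 and CENPF were called higher with IFNγ, as the cell cycle list was described to be, and all 4 were lowered by IFNα against unstimulated cells, by 2.84, 4.17, 3.32 and 3.23 on the log2 scale.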
